A study of Mus musculus with 2 samples.

Results

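Mir202, Mir140 and Mir455 are 3 mouse miRNA genes that are known from the somatic cells of the gonad or are tied to Sox9, the transcription factor that directs supporting cells toward the Sertoli fate. They were chosen by name, and all 3 were listed among the 1638 miRNA features of the smRNA-seq table. Their levels were compared between 1 library of mESCs and 1 library of in vivo prospermatogonia to see how far miRNAs of supporting cells were present in the germ cell sample. The mESCs were of the wild-type E14 line. For naive E14 mESCs the methods describe culture in N2B27 medium with LIF and inhibitors of MEK and GSK3, free of feeder cells, without naming the culture of this library. The prospermatogonia came from male fetuses at E15.5, labelled wild-type on a C57Bl/6J background, whose mothers carried an Oct-4/GFP transgene that is active in the developing gonad. The labels call these cells primordial germ cells, and the methods call them prospermatogonia. How many fetuses were pooled and which gate was used to isolate the cells are not given in the sources used here.

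A miRNA is cut from a hairpin RNA, and 1 or both arms of the hairpin yield a mature strand that guides Argonaute proteins to target mRNAs. Bases 2 to 8 of the mature strand, the seed, account for most of the pairing. Mir202 is known from Sertoli cells of the fetal testis, where it acts downstream of SOX9, and it has also been described in spermatogonia. Mir140 and Mir455 are best known from cartilage, where SOX9 drives them together with their host genes, and Mir140 has been described in the fetal testis as well.

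The mature strands held in RefSeq (GRCm38.p6) for the 3 genes are shown because the seeds set the genes apart from each other and tie Mir202 to let-7. The seed is in capitals, and miR-140-5p is not shown.
mmu-miR-202-5p: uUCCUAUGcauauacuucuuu
mmu-miR-202-3p: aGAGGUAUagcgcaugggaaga
mmu-miR-140-3p: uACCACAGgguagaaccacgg
mmu-miR-455-5p: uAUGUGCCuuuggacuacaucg
mmu-miR-455-3p: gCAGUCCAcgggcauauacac

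The strands shown fell into 5 different seeds, so that the 3 genes did not form a seed family. Of 1738 mature entries in RefSeq, 14 others shared bases 2 to 7 with miR-202-3p, and most of these were let-7 miRNAs, a family that accumulates as cells differentiate. The strand of Mirlet7i, which had the most reads of those listed by gene name, is shown for comparison, again with bases 2 to 8 in capitals.
mmu-let-7i-5p: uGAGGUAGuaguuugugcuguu
Only 1 of these entries, let-7j, which was not in the table by its gene name, shared all of bases 2 to 8 with miR-202-3p. No other entry had the seed of miR-202-5p or of miR-455-3p. The seeds of miR-140-3p and miR-455-5p were each shared with 1 other entry, miR-497b and miR-5129-3p. Mir5129 had 0 reads in both libraries.

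The hairpins of Mir202 and Mir140 show where the strands printed above sit, here in capitals. The 5p arm of Mir140 is not marked.
Mir202 hairpin: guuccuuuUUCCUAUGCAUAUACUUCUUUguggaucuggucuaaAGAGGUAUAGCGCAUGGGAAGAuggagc
Mir140 hairpin: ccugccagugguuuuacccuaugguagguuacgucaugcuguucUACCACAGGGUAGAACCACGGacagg

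The 3 features had exactly the GRCm38 positions of the GENCODE genes of the same name. Mir202 is at chr7:139957689-139957760 on the minus strand, in exon 2 of the lincRNA gene Gm2044 on the same strand and in an intron of Gm16201 on the opposite strand. Mir140 is at chr8:107551244-107551313 on the plus strand within Wwp2, which encodes a ubiquitin ligase. Of the 4 Wwp2 transcripts that span it, 1 holds it in an exon and the others in an intron. Mir455 is at chr4:63256851-63256932 on the plus strand, in an intron of all 4 spanning transcripts of Col27a1, a collagen gene. The nearest other feature of the table lay 1263624 bases from Mir202, 54024 from Mir140 and 4815753 from Mir455, so that each was a locus of its own here. None of their mature strands occurred in another of the 2202 annotated miRNA transcripts, on either strand, and the longest stretch of a hairpin found elsewhere was 12 nt.

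The deposited values were log2 values that correspond, in linear form, to whole numbers of reads (largest deviation 0.0165 reads) except at the lowest value. This value, shared by 1353 features in mESCs and 1321 in prospermatogonia, equals 0.9 reads and was set to 0 reads. The mESC library held 110455 reads on miRNA features and the prospermatogonia library 155237. If the values are read as log2 RPM (reads scaled to a library total of 1000000), the totals were 449643 and 2869578 reads, and miRNA features took 24.6% and 5.41% of them. Levels are therefore given both as RPM and as a share of the miRNA reads, which does not depend on that reading. Each condition had 1 library, so that no difference has a replicate check and no test across conditions was possible. Intervals are exact 95% intervals (Poisson for reads and RPM, Clopper-Pearson for shares and ratios). They describe the counting of reads and nothing else, because copies made by PCR are not separate molecules. The labelled cell types were compared with lists of miRNAs chosen with earlier results of these data known. The comparison is therefore a description and no independent check of the labels. Among all 1638 features, of which 636 carry a miRNA name, 17.4% had a read in mESCs and 19.4% in prospermatogonia. A list of 11 miRNAs of the Mir290 and Mir302 clusters, all of them read in mESCs, made up 24.4% of miRNA reads there and 3.25% in prospermatogonia. Mir291b of the Mir290 cluster, with 350 and 2 reads, was not on this list, and with it the shares were 24.7% and 3.25%. A list of 14 features of male germ cells, mostly X-linked, was read in full in prospermatogonia and at 5 features in mESCs, with 4.61% and 0.285% of miRNA reads. Most of its reads in mESCs were on Mir34c, which had 297 reads there and 88 in prospermatogonia, and on Mir34b, which had 11 and 9. The list did not hold mmu-mir-743b.1 and mmu-mir-871.1 of the same X-linked cluster, and with these the shares were 11.0% and 0.292%.

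Mir202 was read only in prospermatogonia. It had 0 reads in mESCs and 57 reads in prospermatogonia (95% interval 43.2 to 73.9). This is 19.9 RPM in prospermatogonia (15.04 to 25.7), whereas 0 reads in the shallower mESC library allow up to 3 reads, or 6.67 RPM, as a one-sided limit that is tighter than the upper end of the two-sided interval (3.69 reads). Against those 3 reads Mir202 was 2.98-fold higher in prospermatogonia by RPM, and the exact interval of the ratio began at 2.34-fold. As a share of miRNA reads it held 0.0367% in prospermatogonia (0.0278% to 0.0476%), 13.5-fold above the 0.00272% that 3 reads would make in mESCs, with an interval that began at 10.6-fold. At the level of prospermatogonia the mESC library would have held 8.93 reads by RPM and 40.6 reads by the share of miRNA reads, in place of 0. In bulk samples such as these, few cells with much of a miRNA and many cells with little of it cannot be told apart.

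Features with 0 reads in mESCs and 10 RPM or more in prospermatogonia were listed after the values of Mir202 were seen. The set repeats the pattern of Mir202 itself, so that it is a description only. In mESCs 0 reads still allow up to 6.67 RPM and are not an absence. Of 1353 features with 0 reads in mESCs, 69 had a read in prospermatogonia, and 9 reached 10 RPM. The other 8 were all on the X chromosome, and Mir202 was the only autosomal feature among the 9. Their reads in prospermatogonia ran from 38 for Mir471 to 869 for Mir463, with 5 of them above Mir202. The 3 features whose pair of levels was most like that of Mir202 (smallest distance on log2(RPM + 1) over the 2 libraries) were Mir743, Mir883b and Mir471, with 55, 41 and 38 reads in prospermatogonia and 0 in mESCs. All of them belong to the X-linked cluster known from male germ cells. With only 2 libraries, such likeness is a description of 2 values per feature.

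Mir202 was also set beside the miRNAs, mostly of the let-7 family, that share bases 2 to 7 of its 3p seed. Of 10 such features listed by gene name, 6 had reads, in sum 273 in mESCs and 272 in prospermatogonia, which is 0.247% and 0.175% of miRNA reads. Mirlet7i had 196 and 129 reads, Mirlet7g 31 and 59, Mirlet7d 22 and 60, Mir98 15 and 11, Mirlet7b 8 and 9, and Mirlet7f-2 1 and 4, in the order mESCs and prospermatogonia. Unlike Mir202, each of these 6 features was read in both libraries. Mirlet7a-1, Mirlet7c-1, Mirlet7c-2 and Mir1961 were listed at 0 reads in both. For let-7a and let-7c, which have several gene copies, a 0 is a weak measure. How reads with several matches were counted is not given, so that the sums are not a level of the whole family. AC165361.1, a feature on the minus strand at chr17:17830343-17830459 that spans the position of Mirlet7e on the plus strand, was read 20 times in mESCs and 686 times in prospermatogonia. If it and Mirlet7a-2, which had 0 reads, are added, the sums become 293 and 958 reads, or 0.265% and 0.617% of miRNA reads, so that the direction of the summed share turns on whether AC165361.1 is counted with let-7. Reads were counted per hairpin, so that the arms of Mir202 cannot be told apart, nor whether its 3p strand was among the 57 reads.

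Mir140 was the most abundant of the 3 genes in both libraries. It had 280 reads in mESCs (248 to 315) and 558 reads in prospermatogonia (513 to 606). By RPM it was at 623 in mESCs (552 to 700) and 194 in prospermatogonia (179 to 211), which is 3.20-fold higher in mESCs (2.76 to 3.70). By the share of miRNA reads the order was the opposite, with 0.253% in mESCs (0.225% to 0.285%) and 0.359% in prospermatogonia (0.330% to 0.390%), 1.42-fold higher in prospermatogonia (1.23 to 1.64). Both differences were larger than counting error, and their directions differ because all miRNA features together took a 4.54-fold larger part of the mESC library. Mir140 therefore has no direction that holds under both scales. It was at rank 42 of 285 features with a read in mESCs and at rank 32 of 317 in prospermatogonia.

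The 3 features most like Mir140 were Mir17 with 324 and 492 reads, Mir92b with 355 and 731 reads, and Mir181d with 219 and 728 reads in mESCs and prospermatogonia. Mir17 belongs to a cluster known for driving proliferation, and none of these lies near Mir140. Mir181d, although also on chromosome 8, was the farthest of the 3 in pattern, with a log2 ratio of -0.94 against -1.67 for Mir140.

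Mir455 was near the limit of detection. It had 9 reads in mESCs (4.12 to 17.1) and 4 reads in prospermatogonia (1.09 to 10.2). By RPM it was at 20.0 in mESCs (9.15 to 38.0) and 1.39 in prospermatogonia (0.380 to 3.57), 14.4-fold higher in mESCs with a wide interval of 4.01 to 63.8. By the share of miRNA reads it held 0.00815% in mESCs (0.00373% to 0.0155%) and 0.00258% in prospermatogonia (0.000702% to 0.00660%). On that scale it was 3.16-fold higher in mESCs with an interval of 0.883 to 14.1, which includes equal shares, so that a difference was not detectable at this depth. The deeper prospermatogonia library would have held 57.4 reads at the mESC RPM, or 12.6 reads at the mESC share, in place of 4. The features most like it were Mir669o with the same 9 and 4 reads, and then, at equal distance, Mir3063, Mir379 and Mir700 with 8 and 3 reads each.

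**Figure D1:**
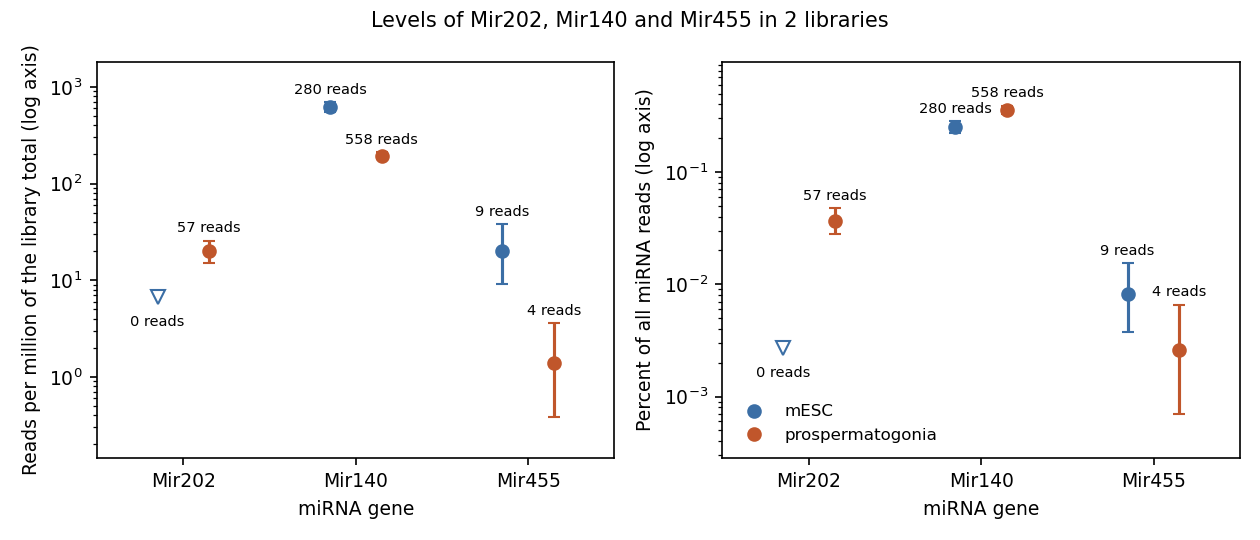
Levels of the 3 miRNA genes as RPM of the library total (left) and as percent of all miRNA reads (right), both on log axes, in mESCs (blue) and prospermatogonia (orange), with reads written beside each point. Bars are exact 95% intervals of the counts and the open triangle marks the level of 3 reads that a count of 0 allows. Mir140 is lower in prospermatogonia on the left and higher on the right, whereas Mir202 is higher and Mir455 lower on both. On the right the difference of Mir455 is within counting error.

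The order of the genes was Mir140, Mir455, Mir202 in mESCs and Mir140, Mir202, Mir455 in prospermatogonia. Per 100 bases of hairpin the levels in mESCs were 890 RPM for Mir140, 24.4 for Mir455 and 0 for Mir202, and in prospermatogonia 278, 1.70 and 27.6 in the same order of genes. The exchange of Mir202 and Mir455 does not depend on how the libraries were scaled, because it is read within each library. Of the 289 reads on the 3 genes in mESCs, 96.9% were Mir140 (94.2% to 98.6%), 3.11% were Mir455 (1.43% to 5.83%) and none were Mir202. Of the 619 reads in prospermatogonia, 90.1% were Mir140 (87.5% to 92.4%), 9.21% were Mir202 (7.05% to 11.8%) and 0.646% were Mir455 (0.176% to 1.65%). These shares add up to the whole in each library, so that they do not vary separately. In mESCs the 9 reads of Mir455 and the 0 reads of Mir202 lie close to the limit of 3 reads, and their order rests on few reads. In prospermatogonia all neighbours in the order were apart by more than counting error.

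Against the most abundant miRNA the genes were low. Mir182, the highest feature of both libraries, had 110-fold more reads than Mir140 in mESCs and 69.8-fold more in prospermatogonia, where it also had 683-fold more than Mir202. The 3 genes summed to 0.262% of miRNA reads in the mESC library (0.232% to 0.294%) and to 0.399% in the prospermatogonia library (0.368% to 0.431%), most of it Mir140. By RPM the order of the libraries was the other way, with sums of 643 in mESCs and 216 in prospermatogonia. Because Mir140 and Mir455 were also read in mESCs, a cultured line, neither sum is a measure of supporting cells.

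The genes were then placed among all features by the log2 ratio of prospermatogonia to mESCs, computed from RPM with a pseudocount of 1. The 203 features entered that reached 10 RPM in either library. All 3 genes were above this filter, but Mir202 only through prospermatogonia and Mir455 only through mESCs, so that the direction of both was close to fixed by the filter and their counts are a description. With 10 RPM asked of both libraries, Mir140 alone of the 3 genes would remain. Mir202 was at least 2-fold higher in prospermatogonia, as were 9.85% of the 203 features, and Mir140 and Mir455 were at least 2-fold lower, as were 80.8%. Lower values were therefore the rule in this comparison and do not set Mir140 or Mir455 apart. The median log2 ratio of the 203 features was -2.52. Mir140, at -1.67, lay above this median, with 71.4% of the features below it. Mir455, at -3.13, lay below the median, with 35.5% of the features under it. Mir202, at 4.38, had rank 10 from the top, although this value depends on the pseudocount, since its mESC level was 0.

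The split of calls between higher and lower depended on the scaling. With library totals 10.9% of the calls were higher in prospermatogonia. When the libraries were scaled to all miRNA reads, which raises the prospermatogonia RPM by 2.18 on the log2 scale before the pseudocount is added, this was 33.6%. With scaling to the median ratio of 111 features, which raises them by 2.37, it was 37.8%. Low features move by less, because the pseudocount is not scaled. Mir202 was higher in prospermatogonia and Mir455 lower under each of these scalings, whereas Mir140 turned from -1.67 to 0.50 and 0.69. For Mir455 the difference by the share of miRNA reads was within counting error.

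**Figure D2:**
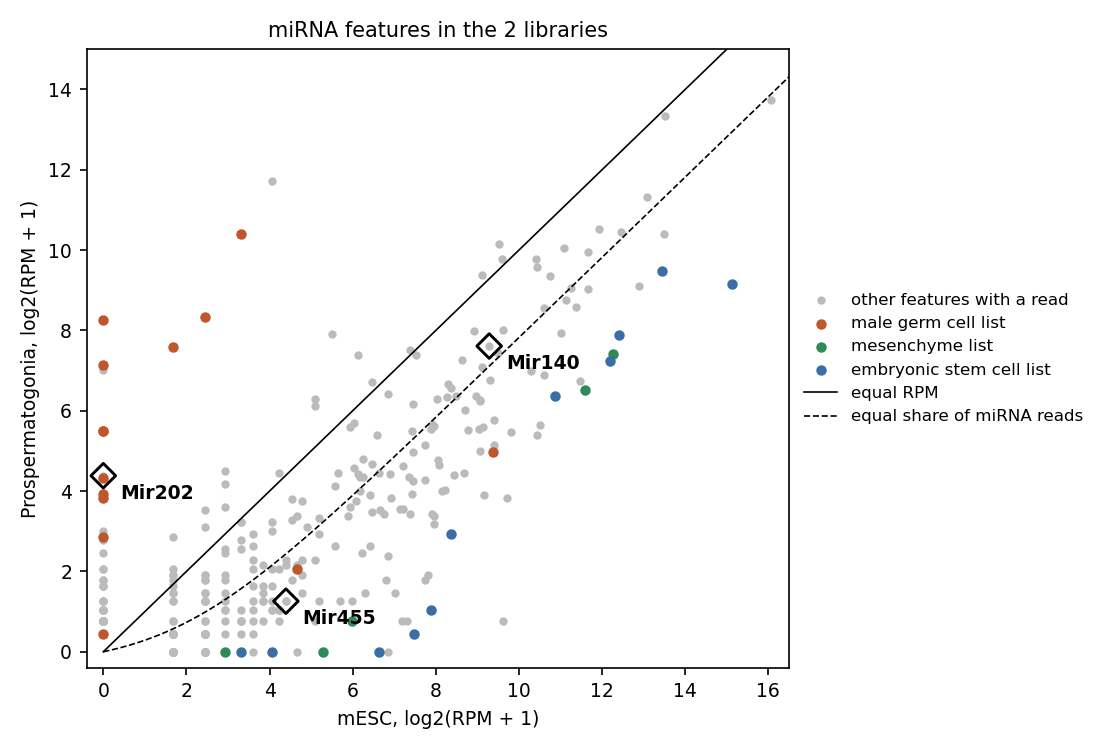
Each miRNA feature with a read by its level in mESCs (horizontal) and prospermatogonia (vertical), both as log2(RPM + 1), with 3 comparison lists in colour and Mir202, Mir140 and Mir455 as diamonds. The solid line marks equal RPM and the dashed line equal shares of miRNA reads. Mir202 lies at 0 on the mESC axis among features of the male germ cell list, Mir140 lies between both lines, and Mir455 lies under both.

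**Figure D3:**
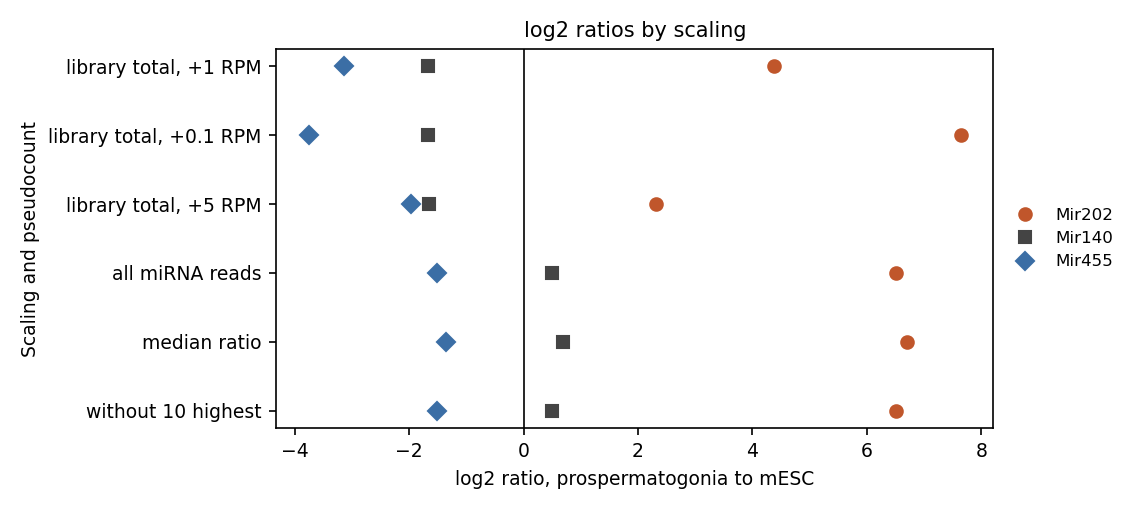
The log2 ratio of prospermatogonia to mESCs (horizontal) for the 3 genes under 6 settings of scaling and pseudocount (vertical). Mir202 stays above 0 (2.31 to 7.64) and Mir455 below it (-3.75 to -1.35), whereas Mir140 is at about -1.7 with library totals and above 0 with the scalings that use miRNA reads.

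Other miRNAs described in granulosa, Sertoli or Leydig cells were few in both libraries. Of 13 names, which include older and newer spellings, 8 were listed, and 5 of these (Mir383, Mir675 and the 3 copies of Mir124a) had 0 reads in both libraries. Among all 1638 features 17.4% had a read in mESCs and 19.4% in prospermatogonia. Only 636 of these features carry a miRNA name, and a 0 was rarer among them than among features named after genomic clones. A count of 0 was still common and does not set this list apart. A 0 is a weak measure for genes with several copies, such as Mir124a, Mir199a and Mir133a, since features of other such genes, among them Mirlet7a-1, Mirlet7a-2, Mir29b-1 and Mir29b-2, were also listed at 0, and how reads with several matches were counted is not given. Mir132 and Mir212, neighbouring miRNAs induced by hormones in granulosa cells, had 9 and 6 reads in mESCs and 11 and 4 in prospermatogonia. Mir224, an X-linked miRNA of granulosa cells, had 2 reads in mESCs and 0 in prospermatogonia. In sum the list held 17 reads in mESCs and 15 in prospermatogonia, or 0.0154% and 0.00966% of miRNA reads. Mir202, with 57 reads, thus exceeded the whole of this list in prospermatogonia.

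Markers of other cells were looked at in the same way, because the sample could hold cells from around the germ cells. Reads fell on 5 of 7 listed mesenchymal features in mESCs and on 3 in prospermatogonia, or 3.31% and 0.482% of miRNA reads. The most abundant were Mir21, a miRNA raised in many proliferating cells, with 2215 and 486 reads, and Mir143, typical of smooth muscle and fibroblasts, with 1393 and 260 reads. Mir145, Mir199a-1, Mir199a-2 and Mir199b had 0 reads in prospermatogonia, and Mir214 had 2. The endothelial Mir126 had 255 and 40 reads. Of 5 listed blood features, Mir142 of leukocytes had 400 and 124 reads and Mir150 35 and 5, while Mir451 of red cells had 0 and 1 and Mir144 and Mir223 had none. No listed miRNA of skeletal muscle (5 features) or liver (1 feature) had a read. This was also the case for most of all miRNA features, though for a smaller part of those with a miRNA name. The summed level of the mesenchymal list in prospermatogonia was 261 RPM, that of blood 45.3 RPM and that of endothelium 13.9 RPM, beside 19.9 RPM for Mir202. These 3 lists were lower in prospermatogonia than in mESCs by RPM and by share. Since they were read more in a cultured line of mESCs, they do not mark such cells alone. Their difference between the libraries is therefore no measure of cells from around the germ cells. The part of any such cell, or of supporting cells, in the reads of Mir202 and Mir140 was not tested.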

How the data were processed

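smRNA-seq was analysed for 1 mESC and 1 prospermatogonia library. The authors selected cDNA by size, trimmed reads and aligned these with Bowtie. The submitters' notes name Trim Galore 0.4.1 and GRCm38, whereas the methods name piPipes and mm9. The positions of 1300 of 1638 features matched GENCODE vM21 miRNA genes on GRCm38, the build used here. The deposited log2 values carry no stated unit and were taken as log2 RPM, the unit given for the RNA-seq data. Strand use and the counting of reads with several matches are not given in the sources used here.

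Linear values were divided by the value of 1 read (2.22 and 0.348 RPM). The lowest value in each library, 0.9 reads, was set to 0. Only 1 library per condition was available, so no test was run. The features most like a gene were the 3 named miRNAs at the smallest Euclidean distance, with Mir700 added for a tie. From each list at most the 3 features with most reads were to be named. Those at or near 0, Mir34b and Mir34c were named in addition, after their values were seen, as were the set with 0 reads in mESCs and the features added to lists (Mir291b, mmu-mir-743b.1, mmu-mir-871.1, AC165361.1 and Mirlet7a-2). The genes and lists were chosen with earlier results of these data known. The calculations were tested on simulated data. Alternatives were other pseudocounts, scalings and filters. Scripts ran under Python 3.11.15 with scipy 1.17.1, pandas 2.3.3, matplotlib 3.10.9 and numpy 2.4.6. The mPGCLC library was not analysed here.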

Additional observations from a re-analysis of the deposited data

How the results depend on the processing

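No paired analysis was possible because mESCs and prospermatogonia had 1 library each, and no replicate could be left out. Mir202 was higher in prospermatogonia under all 6 alternatives, with log2 ratios of 2.31 to 7.64. Mir140, at -1.67, reversed to 0.50, 0.69 and 0.50 with scaling to all miRNA reads, to the median ratio and to the sum without the 10 highest features, since these raise the prospermatogonia RPM by 2.18, 2.37 and 2.18 on the log2 scale before the pseudocount. Mir455, at -3.13, moved in the same order to -1.52, -1.35 and -1.52, and to -1.97 with a pseudocount of 5 RPM, because its 4 reads are worth little more than 1 RPM. The shares of miRNA reads stayed within their counting intervals when features named after genomic clones were left out. The features at least 2-fold higher, 20 as reported, were 40 without a filter, 5 with 10 RPM in both libraries, 45 with the median ratio and 41 with all miRNA reads. The features at least 2-fold lower, 164 as reported, were 230, 91, 74 and 81 in the same order of settings. Of the comparison lists, extended after the data were seen, the male germ cell list moved from 4.61% to 11.0% of miRNA reads in prospermatogonia and the let-7 features from 0.175% to 0.617%. Depth limits Mir202 in mESCs, where 3 reads are 6.67 RPM, and Mir455 in both libraries.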
